A study of Bos taurus with 6 samples.

Results

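The miR-200 family was examined in extracellular vesicles (EVs) released by cultured bovine granulosa cells, the somatic cells that line the ovarian follicle. Its members were taken by identifier: bta-miR-200a, bta-miR-200b, bta-miR-200c, bta-miR-141 and bta-miR-429. All 5 were listed in each library, among 512 miRNAs in total, each with a value above 0 in some library. Granulosa cells came from small antral follicles of slaughterhouse ovaries and were cultured at 37 °C in medium with exosome-depleted fetal bovine serum. They were then kept at 37 °C (control-EVs, 3 libraries) or heat-stressed at 42 °C (HS-EVs, 3 libraries) for 24 h. No genotype, hormone or drug separates the groups, and both media held bovine serum, so that a read from serum and a read from the cells cannot be told apart. The EVs were precipitated from spent medium with ExoQuick-TC, which also brings down material that is not vesicular. How many animals stand behind a replicate is not given in the sources used here, so that p-values measure the spread between these libraries.

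The miR-200 family is known as a keeper of the epithelial state. Its members repress ZEB1 and ZEB2, the transcription factors that switch off E-cadherin, and they are abundant in most epithelia and low in mesenchymal cells. The family is encoded in a pair of clusters. According to RefSeq (assembly ARS-UCD2.0, not that of the study), MIR200B, MIR200A and MIR429 follow each other directly between the protein-coding genes TTLL10 and C16H1orf159. MIR141 and MIR200C lie on another chromosome, within the non-coding RNA gene LOC112446758 and between PHB2 and PTPN6. The mature miRNAs form a pair of seed groups that cut across the clusters: bta-miR-200b, bta-miR-200c and bta-miR-429 share a seed, and bta-miR-200a and bta-miR-141 share a seed that differs from it by a single base. Members of a seed group resemble each other beyond the seed as well, so that the division of reads between them is uncertain. Mature sequences were not used here. In mice, miR-200b and miR-429 act in the pituitary, where they are needed for ovulation.

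The deposited values are normalized read counts, in which the reads of a miRNA are multiplied by a single factor per library. The reads were recovered from them, and 1 read was worth 0.697 to 4.11 normalized counts. Libraries held 274434 to 2360980 reads on miRNAs, of which 59.9% to 98.6% were assigned to bta-miR-1246. These totals exceeded the numbers of reads that the study lists as mapped to annotated miRNAs in the same libraries. The reason was not tested, and counting intervals take the recovered reads as they stand. Between 34141 and 235634 reads fell on other miRNAs. HS-EVs replicate 1 stood apart, with the most reads in all, the highest share on bta-miR-1246 and the fewest reads on other miRNAs. In that library 3 reads, used here as the floor above 0, corresponded to 12.3 normalized counts, against 2.09 to 5.93 in the others.

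Members of the miR-200 family were scarce in both kinds of EVs. In all 6 libraries together, 57 reads were assigned to the family, 34 in control-EVs and 23 in HS-EVs. Control-EVs replicates 1, 2 and 3 held 8, 20 and 6 of them, and HS-EVs replicates 1, 2 and 3 held 2, 16 and 5. Of the 30 values of the family, 10 were 0, 9 were a single read and 9 were 3 reads or more. None of the 30 values reached a normalized count of 10, the level that the study asked for in at least 2 of 3 libraries before a miRNA counted as detected. The criterion was thus met by 0 of the 5 members in either group, where 194 of 512 miRNAs (37.9%) met it in control-EVs and 188 (36.7%) in HS-EVs. Low values were common, with 289 of 512 miRNAs (56.4%) below 10 reads in every library, all 5 members among them.

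**Figure D1:**
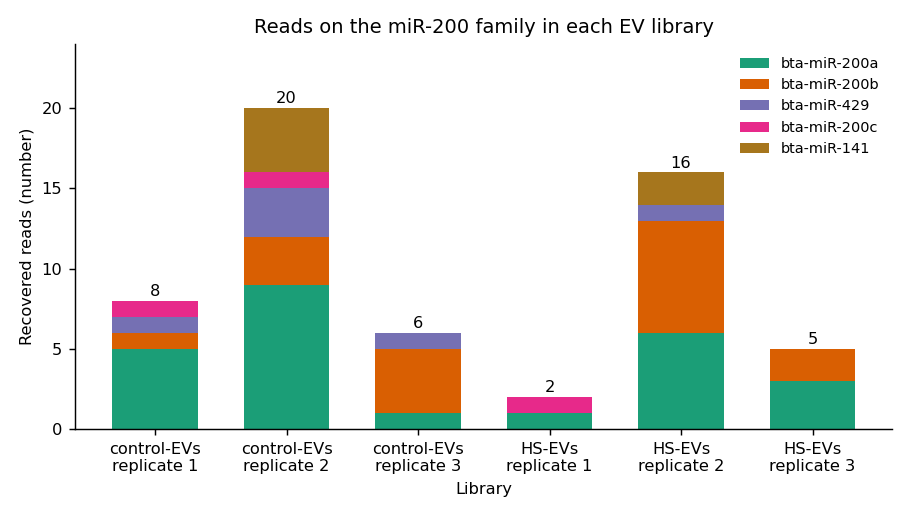
Recovered reads (y axis, number) on the 5 members of the miR-200 family in each EV library (x axis), stacked by miRNA, with the library's sum above each bar. Sums run from 2 reads in HS-EVs replicate 1 to 20 reads in control-EVs replicate 2, and bta-miR-200a and bta-miR-200b make up most of them.

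The most abundant member was bta-miR-200a, with 25 reads (43.9% of the family's). In replicates 1 to 3 of control-EVs it had 5, 9 and 1 reads, or 9.18, 6.28 and 1.98 normalized counts. In those of HS-EVs it had 1, 6 and 3 reads, or 4.11, 6.60 and 4.89 normalized counts. It was the one member with a read in every library, and the HS-EVs libraries lay within the range of the control-EVs libraries. Control-EVs averaged 5.81 ± 3.62 normalized counts and HS-EVs 5.20 ± 1.27 (SD, n = 3 each). On the scale of log2(normalized count + 1), the fold change was 0.02 with a standard error of 0.54 (adjusted p = 0.988, limma over all 512 miRNAs). An exact permutation test of the same values (two-sided) gave p = 0.9, and 3 libraries against 3 cannot give less than 0.1. On summed reads, the ratio of HS-EVs to control-EVs was 0.938, with a 95% counting interval of 0.377 to 2.23.

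Next came bta-miR-200b, encoded beside it, with 17 reads (29.8%). Its 1, 3 and 4 reads in control-EVs replicates 1 to 3 gave 1.84, 2.09 and 7.90 normalized counts. Its 0, 7 and 2 reads in HS-EVs replicates 1 to 3 gave 0, 7.70 and 3.26. Both groups thus held a low and a high library and overlapped over nearly their whole range. Control-EVs averaged 3.94 ± 3.43 normalized counts and HS-EVs 3.65 ± 3.86 (SD, n = 3 each). limma estimated the log2 fold change at -0.36, with a standard error of 0.79 and an adjusted p-value of 0.952. The fold change turned to 0.51 without HS-EVs replicate 1, the library in which no read was found, and to 0.17 without control-EVs replicate 3. Without HS-EVs replicate 2 it was -1.05. The ratio of summed reads was 1.58 (95% counting interval 0.542 to 4.72), so that the mean of log values and the summed reads differed in sign. Of the 9 HS-EVs reads in that sum, 7 came from HS-EVs replicate 2.

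The third member of this cluster, bta-miR-429, was the one whose groups did not overlap. It had 1, 3 and 1 reads in control-EVs replicates 1 to 3, or 1.84, 2.09 and 1.98 normalized counts. In HS-EVs replicates 1 to 3 it had 0, 1 and 0 reads, or 0, 1.10 and 0 normalized counts. Every control-EVs library lay above every HS-EVs library, on 6 reads in all. The single reads of control-EVs replicates 1 and 3 and of HS-EVs replicate 2 differ only by the worth of a read. In HS-EVs replicate 1, 1 read would have been worth 4.11 normalized counts, above all control-EVs values, so that its 0 does not show a lower level. Control-EVs averaged 1.97 ± 0.128 normalized counts and HS-EVs 0.367 ± 0.635 (SD, n = 3 each), with p = 0.1 in the two-sided exact permutation test. limma gave a log2 fold change of -1.21 with a standard error of 0.47, and its adjusted p-value of 0.870 did not pass the threshold. The fold change was -0.38 with a pseudocount of 5 and -2.76 when scaled by reads other than bta-miR-1246. Across all 512 miRNAs, 14 (2.73%) were lower in HS-EVs without overlap, and 11 (2.15%) were lower at an unadjusted p-value of 0.05 or less, bta-miR-429 among both. The ratio of summed reads was 0.281, with a 95% counting interval of 0.00595 to 2.51 that holds no change as well as a large one. HS-EVs replicate 2 held the one read of that group. Without it, both HS-EVs libraries were at 0 reads and the adjusted p-value from limma was 0.116, past the study's threshold, at a log2 fold change of -1.57. In that setting 3 of 512 miRNAs were called, all lower in HS-EVs. The HS-EVs values were then all 0, and 1, 3 and 1 reads of unlike worth gave nearly equal control-EVs values. The small spread behind this p-value thus comes from the scaling, and the call does not show a lower level.

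The members of the other cluster were also rare, with 6 reads on bta-miR-141 and 3 on bta-miR-200c. For bta-miR-141, 4 reads were found in control-EVs replicate 2, 2 reads in HS-EVs replicate 2 and none in the other 4 libraries. Both libraries with reads carry the same number and are the deepest of their group in reads outside bta-miR-1246. Control-EVs averaged 0.930 ± 1.61 normalized counts and HS-EVs 0.733 ± 1.27 (SD, n = 3 each), with a ratio of summed reads of 0.704 (95% counting interval 0.0636 to 4.91) and an adjusted p-value from limma of 0.974. For bta-miR-200c, a single read was found in each of control-EVs replicates 1 and 2 and HS-EVs replicate 1, and none elsewhere. The read in HS-EVs replicate 1 was worth 4.11 normalized counts and that in control-EVs replicate 2 was worth 0.697, so that its deposited values differ by the worth of a read and not by the number of reads. With 2 reads in control-EVs and 1 in HS-EVs, both sums were under the floor of 3 reads over a group's libraries, and no fold change is given.

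**Figure D2:**
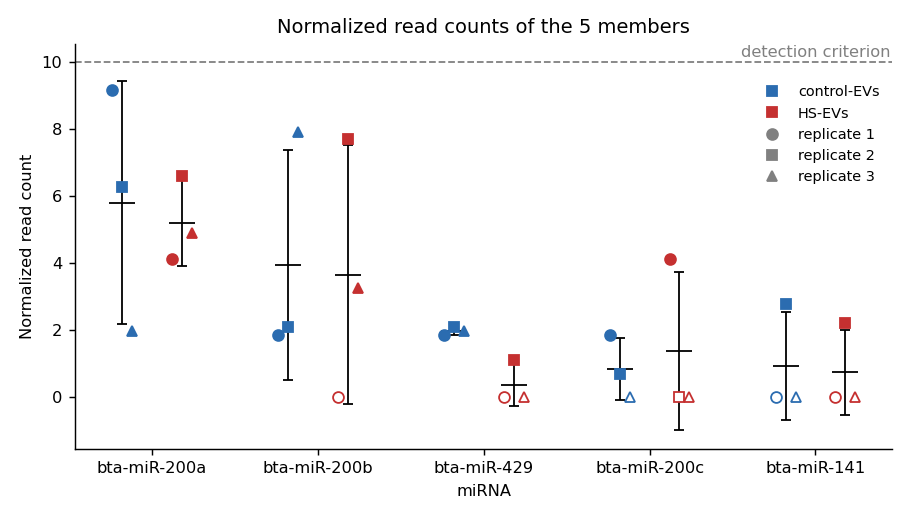
Normalized read counts (y axis) of the 5 members (x axis) in control-EVs (blue) and HS-EVs (red), 1 symbol shape per replicate number, open where no read was found, with the group mean and SD in black. All values lie under the dashed line at 10, the detection criterion, and only bta-miR-429 has groups that do not overlap, on 6 reads and with 1 read worth up to 4.11 normalized counts.

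The cluster of bta-miR-200b, bta-miR-200a and bta-miR-429 accounted for 48 of the 57 family reads (84.2%, 95% Wilson interval 72.6% to 91.5%), and that of bta-miR-200c and bta-miR-141 for the other 9. Of the family reads, the former took 87.5%, 75.0% and 100% in replicates 1 to 3 of control-EVs and 50.0%, 87.5% and 100% in replicates 1 to 3 of HS-EVs. It had more reads than the latter in each library but HS-EVs replicate 1, where each cluster had 1 read. The mean share was 87.5% ± 12.5 and 79.2% ± 26.0, respectively (SD, n = 3 each), and on summed reads it was 82.4% (66.5% to 91.7%) and 87.0% (67.9% to 95.5%). The order of the groups differed between these averages, and the intervals overlapped over most of their range. No test was made of these sums over members. The seed groups were nearly even, with 26 reads on bta-miR-200b, bta-miR-200c and bta-miR-429 and 31 reads (54.4%, 41.6% to 66.6%) on bta-miR-200a and bta-miR-141. In HS-EVs replicates 1 and 2 both seed groups had the same number of reads, whereas in control-EVs replicate 3 the seed group of bta-miR-200a held 1 of 6 reads.

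By mean normalized count over the 6 libraries, the order of levels was bta-miR-200a (5.50 ± 2.45, SD, n = 6), bta-miR-200b (3.80 ± 3.27), bta-miR-429 (1.17 ± 0.968), bta-miR-200c (1.11 ± 1.64) and bta-miR-141 (0.832 ± 1.30). Mature miRNAs are of nearly equal length, but ligation and amplification can favour some sequences, so that the order is one of normalized counts and not of copies. In reads, bta-miR-141 (6) tied with bta-miR-429 (6) and lay above bta-miR-200c (3), whose place rests on the single read in HS-EVs replicate 1. bta-miR-200a exceeded bta-miR-141 in 6 of 6 libraries by 4.67 ± 2.43 normalized counts (SD, n = 6; two-sided exact sign-flip test, p = 0.0312, which 6 libraries cannot go below, and 0.208 after Benjamini-Hochberg adjustment over the 10 pairs of members). None of the 10 pairs passed an adjusted p-value of 0.05, but none could have. Libraries in which both members were equal raise the smallest p-value of the sign-flip test for most pairs. The adjusted values therefore do not decide whether levels differ. Neighbours in the order did not differ beyond their spread. The difference between bta-miR-200a and bta-miR-200b was 1.71 ± 4.69 normalized counts (SD, n = 6), with bta-miR-200a higher in 4 of 6 libraries (two-sided exact sign-flip test, p = 0.438). For bta-miR-429 against bta-miR-200c and bta-miR-200c against bta-miR-141, the differences were 0.0603 ± 2.19 and 0.275 ± 2.41 (SD, n = 6).

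Among all 512 miRNAs, bta-miR-200a ranked 233 by mean normalized count, bta-miR-200b 257, bta-miR-429 327, bta-miR-200c 333 and bta-miR-141 362. The family thus lay in the middle and the lower part of the list, where ranks are set by a few reads. The list holds only miRNAs with a read in some library, so that ranks leave out miRNAs that were never seen. For comparison, bta-miR-202, a miRNA of the gonads, ranked 19, with 1682 normalized counts on average. Summed over a list, the miRNAs linked to granulosa cells and to mesenchymal cells held far more reads than the family, most of them on a few abundant miRNAs of each list. Per 1000000 reads outside bta-miR-1246, the family held 81.6 to 104 reads in control-EVs and 57.7 to 130 in HS-EVs. The 6 granulosa and gonad linked miRNAs held 17667 to 22448 in control-EVs and 21510 to 23484 in HS-EVs, although bta-miR-212 (rank 469) and bta-miR-383 (rank 366) among them had at most 1 read in any library and ranked below all 5 members. The 9 mesenchymal, smooth muscle and endothelial entries, such as bta-miR-199a-3p and bta-miR-143, held 11132 to 14004 and 9858 to 15963. Of these, bta-miR-199b (rank 236, 5.18 normalized counts on average) lay just below bta-miR-200a, and bta-miR-145 (rank 203, 8.59) not far above it. The 5 blood cell and serum miRNAs, dominated by the liver miRNA bta-miR-122, held 96485 to 158644 and 56456 to 103278.

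**Figure D3:**
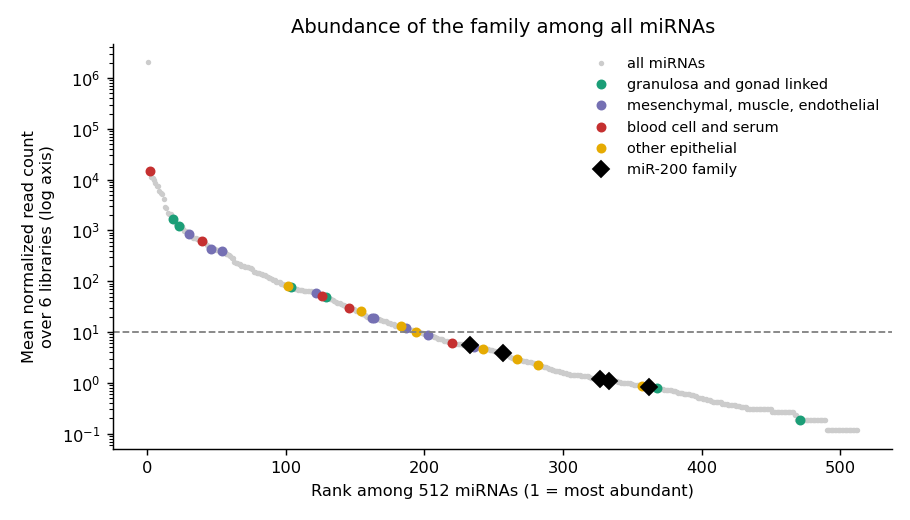
Mean normalized read count over the 6 libraries (y axis, log scale) against rank among 512 miRNAs (x axis, 1 is the most abundant), with the family as black diamonds and the marker lists as coloured points. The 5 members lie between ranks 233 and 362, under the dashed line at 10 normalized counts.

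Other epithelial miRNAs spanned a wide range of levels. Of 10 names looked up, 8 were listed, and together they held 809 to 1318 reads per 1000000 in control-EVs and 674 to 1134 in HS-EVs. Most of these reads belonged to bta-miR-192 (rank 102, 79.1 normalized counts on average) and bta-miR-194 (rank 154, 26.0), which are typical of gut, liver and kidney epithelium and share a transcript. Also above every member of the family lay bta-miR-182 (rank 183, 13.0) and bta-miR-183 (rank 194), which are encoded together and abundant in sensory epithelium. The third miRNA of their cluster, bta-miR-96 (rank 267, 2.89), lay below bta-miR-200a and bta-miR-200b, and bta-miR-215 (rank 242, 4.73) lay below bta-miR-200a. Of the 8, these were the 2 with log2 fold changes above 0 (0.61 and 0.13). bta-miR-205, a miRNA of stratified and glandular epithelium, had 10 reads in control-EVs replicate 2 and at most 2 in any other library, and bta-miR-375, a miRNA of endocrine cells, had 3 reads in all. Detection at a normalized count of 10 was reached by 3 of the 8 in control-EVs and 2 in HS-EVs, the third being bta-miR-183 (12.6 and 23.7 in control-EVs replicates 2 and 3). Of these 8 miRNAs, 0 passed the threshold or an unadjusted p-value of 0.05 in limma, and the median of their log2 fold changes was -0.30, beside -0.08 for the 5 members, bta-miR-200c under the floor included, and 0.01 for all 512 miRNAs. The median was 0.06 for the mesenchymal list, 0.15 for the granulosa list and -0.27 for the blood list, and of these 0 miRNAs passed either limit in limma or were called by edgeR or DESeq2.

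Within each group, the number of family reads in a library rose with the reads outside bta-miR-1246. The pair of libraries with the most such reads, control-EVs replicate 2 (235634) and HS-EVs replicate 2 (123448), had 20 and 16 family reads, and the one with the fewest, HS-EVs replicate 1 (34141), had 2. Between groups the order did not hold throughout. HS-EVs replicate 3 (86705) had 5 family reads, below the 8 and 6 of control-EVs replicates 1 (76623) and 3 (73569). Per 1000000 such reads, the values of control-EVs replicates 1 to 3 were 104, 84.9 and 81.6, and those of HS-EVs replicates 1 to 3 were 58.6, 130 and 57.7. Their 95% Wilson intervals overlapped for every pair of libraries, the narrowest running from 54.9 to 131 in control-EVs replicate 2 and the widest from 16.1 to 214 in HS-EVs replicate 1. No test was made between single libraries. As a share of all reads, intervals of some libraries did not overlap, such as 19.4 to 51.3 per 1000000 in HS-EVs replicate 2 and 0.232 to 3.09 in HS-EVs replicate 1.

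**Figure D4:**
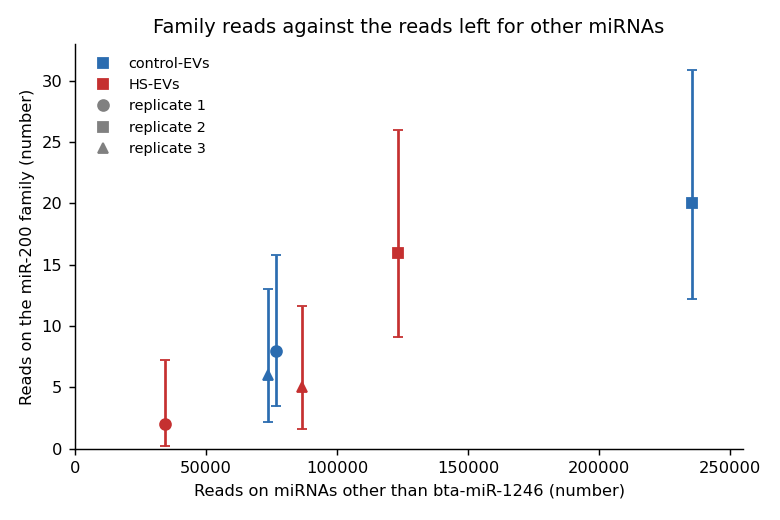
Reads on the miR-200 family (y axis, number) against reads outside bta-miR-1246 (x axis, number) in each library, with exact 95% Poisson intervals that cover counting error only. Within each group the deeper libraries hold more family reads, from 2 reads at 34141 to 20 reads at 235634.

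To compare HS-EVs with control-EVs, each of the 512 miRNAs was tested in the same fit. At the threshold of the study, which asks for an adjusted p-value up to 0.3 and a log2 fold change of at least 1 in either direction, limma called 0 of 512 miRNAs (0%), so that 0 of the 5 members passed. The study, which used edgeR, reported 5 miRNAs enriched in HS-EVs at this threshold, none of them a member of the family. At an unadjusted p-value of 0.05 or less, limma listed 25 of 512 (4.88%) and 1 of the 5 members, bta-miR-429. On the recovered reads, edgeR's quasi-likelihood test called 3 miRNAs (0.586%) and listed 26 at an unadjusted p-value of 0.05, and DESeq2 called 0 and listed 10. No member was called by either. For the sum over the family, the ratio of HS-EVs to control-EVs was 0.952 (95% counting interval 0.535 to 1.66) with the deposited scaling. It was 1.01 (0.537 to 1.85) for the cluster of bta-miR-200b, bta-miR-200a and bta-miR-429 and 0.704 (0.114 to 3.29) for that of bta-miR-200c and bta-miR-141. HS-EVs replicate 2 held 16 of the 23 family reads of HS-EVs, and these ratios were not computed without it. The reads are relative, so that fewer vesicles that carry a miRNA and less of it per vesicle cannot be told apart. These intervals cover counting error only and hold for the deposited scaling alone, and each of them holds no change.

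The size of the difference depended on the scaling, on the kind of average and on HS-EVs replicates 1 and 2. By the mean over libraries, the family was lower in HS-EVs on each of 3 scales, by less than the SD of HS-EVs. With the deposited scaling and per reads of all kinds, the difference was above the SD of control-EVs. The means were 13.5 ± 1.47 and 11.3 ± 5.44 summed normalized counts and 90.3 ± 12.3 and 82.0 ± 41.3 reads per 1000000 reads outside bta-miR-1246 (control-EVs first, SD, n = 3 each). Per 1000000 of all reads on miRNAs, the family held 16.1, 34.0 and 21.9 reads in replicates 1 to 3 of control-EVs and 0.847, 31.6 and 8.96 in those of HS-EVs. The means were 24.0 ± 9.17 and 13.8 ± 15.9 (SD, n = 3 each), a difference below the SD of HS-EVs but above that of control-EVs. The HS-EVs mean was 20.3 without replicate 1 and 4.90 without replicate 2. On reads summed over each group, the ratio of HS-EVs to control-EVs was 0.269 (95% counting interval 0.151 to 0.470) per reads of all kinds, but 1.07 (0.601 to 1.87) per reads other than bta-miR-1246. Without HS-EVs replicate 1, in which bta-miR-1246 took 98.6% of the reads, the ratio per reads of all kinds was 0.789 (0.435 to 1.40). With all 6 libraries on that scale, the median log2 fold change of all 512 miRNAs was -0.79, while the members spread around it with -0.95 for bta-miR-200a, -0.69 for bta-miR-200b, -1.61 for bta-miR-429 and -0.22 for bta-miR-141.

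**Figure D5:**
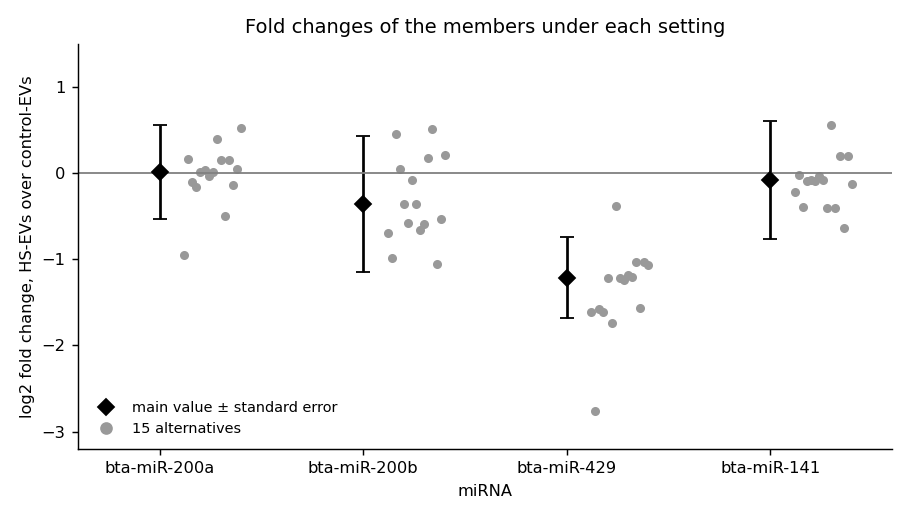
log2 fold changes of HS-EVs over control-EVs (y axis) for the 4 members with more than 3 reads in a group (x axis), with limma's value and standard error in black and 15 alternatives in grey. Values of bta-miR-200a, bta-miR-200b and bta-miR-141 fell on both sides of 0. Those of bta-miR-429, whose groups do not overlap and whose sign most alternatives therefore cannot turn, ran from -2.76 to -0.38.

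The pattern most like that of bta-miR-200a over the 6 libraries was sought among the 130 miRNAs outside the family with 10 or more reads in every library. On log2(normalized count + 1), the highest Pearson correlations were those of bta-miR-345-3p (0.93), bta-miR-532 (0.81), bta-miR-152 (0.79), bta-miR-378 (0.78) and bta-miR-335 (0.77). In replicates 1 to 3, bta-miR-345-3p had 160, 114 and 59.3 normalized counts for control-EVs and 86.3, 154 and 135 for HS-EVs, so that, like bta-miR-200a, it was lowest in control-EVs replicate 3 and highest in control-EVs replicate 1. These are the 5 highest of 130 values over 6 points that share scaling factors, and bta-miR-200a had as few as 1 read. Between members of the family, the correlations lay between -0.92 and 0.47, the lowest between bta-miR-200b and bta-miR-200c, whose values of 0 or 1 read leave little to read from it.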

How the data were processed

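Small RNA libraries with unique molecular identifiers (UMIs) were made from the EVs of 3 control and 3 heat-stressed cultures. The authors trimmed reads with Cutadapt 1.11, collapsed reads that shared a UMI and mapped them with Bowtie2 2.2.2 to the bovine genome (UMD3.1) and to miRBase. They deposited TMM-normalized read counts from edgeR, a scaled signal per miRNA and library. In every library 100% of the values were whole multiples (within 0.001) of the smallest value above 0, which was taken as 1 read. Were the rarest miRNA of a library at more than 1 read, recovered reads would be too low by that factor. In contrast, their totals are above the study's own numbers of reads mapped to miRNAs, for a reason not given in the sources used here. All 15 pairs of libraries differed beyond sampling noise (chi-square per degree of freedom 18.8 or more).

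HS-EVs were compared with control-EVs by limma 3.58.1 (R 4.3.3, default settings) on log2(normalized count + 1) over 512 miRNAs, unfiltered, with Benjamini-Hochberg adjustment. Recovered reads were tested with edgeR 4.0.16 and DESeq2 1.42.0, and single values with exact permutation tests (scipy 1.17.1). The scripts were tested on simulated data. Ratios of summed reads have exact binomial intervals, and shares have Wilson intervals (95%). Intervals and the floor of 3 reads cover counting error only. Alternatives were other scalings, tests, pseudocounts, a filter, the replicate block and leaving out libraries. Leaving out both libraries of replicate 1 was added after the data were seen. Members, marker lists and tests, limma's default without trend included, were chosen with earlier results of these data known. Named miRNAs were the members, the 5 most like bta-miR-200a, and those of the marker lists on which a statement turns. Seed groups rest on general knowledge, since mature sequences were not used here.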

Additional observations from a re-analysis of the deposited data

How the results depend on the processing

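The number of miRNAs past the threshold, 0 of 512, became 1 when scaled by reads other than bta-miR-1246, 1 with a pseudocount of 0.5, 2 with limma's trend, 3 with edgeR and 31 without both libraries of replicate 1. With each library left out it lay between 0 and 4. It was above 0 without control-EVs replicate 2 (4), HS-EVs replicate 1 (2) or HS-EVs replicate 2 (3). Of 60 fold changes of the 4 members under alternatives, 1 passed the threshold, that of bta-miR-429 without HS-EVs replicate 2 (adjusted p = 0.116 from limma), where both remaining HS-EVs libraries were at 0 reads. The lowest adjusted p-values under alternatives were 0.663 for bta-miR-200a, 0.767 for bta-miR-200b and 0.767 for bta-miR-141. The sign turned for bta-miR-200a when scaled by all reads (-0.95), with edgeR (-0.11), with DESeq2 (-0.16) and with a pseudocount of 5 (-0.031). It turned for bta-miR-200b with edgeR (0.45), with DESeq2 (0.054) and without both libraries of replicate 1 (0.21), a setting that gave 0.52 for bta-miR-200a. With each library left out, log2 fold changes lay between -0.49 and 0.39 for bta-miR-200a, -1.05 and 0.51 for bta-miR-200b, -1.57 and -1.03 for bta-miR-429 and -0.64 and 0.56 for bta-miR-141. For bta-miR-429 it was -0.38 with a pseudocount of 5, -1.74 with one of 0.5 and -2.76 when scaled by reads other than bta-miR-1246. The causes were not tested. The filter on low values left no member, so that it gave no fold change. Per 1000000 reads other than bta-miR-1246, the family's mean rose from 24.0 to 90.3 in control-EVs and from 13.8 to 82.0 in HS-EVs, since the denominator is smaller. With each library left out, the share of the cluster of bta-miR-200b, bta-miR-200a and bta-miR-429 lay between 81.2% and 93.8% in control-EVs and between 68.8% and 93.8% in HS-EVs.

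With the replicate number as a block, 0 miRNAs passed the threshold and the smallest adjusted p-value from limma was 0.505. The log2 fold change of bta-miR-429 was -1.21 (adjusted p = 0.739 from limma). After subtraction of the group mean, libraries with the same number correlated at 0.141 (replicate 1), 0.141 (replicate 2) and 0.0787 (replicate 3), and each library correlated best with that of its own number, a hint from the data and not from the design. No call changed with the replicate block.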
